A study of Mus musculus with 6 samples.

Results

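The 6 miRNAs described here were the 5p and 3p arms of 3 mouse miRNA hairpins, miR-345, miR-324 and miR-676. They were measured in primary mesangial cells that served as controls or were given transforming growth factor β1 (TGF-β1). They were 6 of the 778 mature miRNAs listed in the deposited table. The hairpins were picked because the balance between their arms differed between the groups in these same libraries. Their ratios, levels and sums in this contrast are therefore given as a description, without a test. Mesangial cells are contractile support cells of the kidney glomerulus, and TGF-β1 makes them lay down matrix in kidney disease. Cells of the 3 TGF-beta1 libraries were given 10 ng/ml TGF-β1 over 72 h. Those of the 3 Control libraries are labelled only as Control. Whether they received a vehicle, and how long they were cultured, is not given in the sources used here. Both groups were mouse primary cells at passages 3 to 6, grown in medium with 25.5 mM glucose and 20% foetal bovine serum, so the controls were high-glucose cultures as well. Whether the libraries of a group came from separate cultures or animals is not given in the sources used here, so their spread may be technical.

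A miRNA hairpin is cut first by Drosha and then by Dicer, which leaves a short duplex of a 5p and a 3p strand. One strand is usually kept in an Argonaute protein, where it guides repression of mRNAs through its seed, and the other is mostly lost. The strand whose 5′ end is less tightly paired, or begins with U or A, tends to be kept. The balance can still differ between tissues. For miR-324, uridylation of the precursor is known to move the Dicer cut and with it the arm that is kept. Since each arm has its own seed, the arm that is kept sets which mRNAs the hairpin can reach.

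The mature sequences are shown because each arm of a hairpin carries a different seed, written in capitals and covering bases 2 to 8 from the 5′ end. They are RefSeq records, found for 5 of the 6 arms; miR-676-5p is named only.
mmu-miR-345-5p: gCUGACCCcuaguccagugcuu
mmu-miR-345-3p: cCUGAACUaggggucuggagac
mmu-miR-324-5p: cGCAUCCCcuagggcauuggugu
mmu-miR-324-3p: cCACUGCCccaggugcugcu
mmu-miR-676-3p: cCGUCCUGagguuguugagcu

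The 5 seeds all differed from each other, and 0 other miRNAs of the RefSeq table carried any of them. None of the 5 arms began with U or A, the bases that favour loading. MiR-345-5p began with G and the remaining arms with C. Among the 60 hairpins with both mature sequences at hand, both arms began with C or G in 7, or 11.7%, and miR-345 and miR-324 were among these 7. The more abundant arm in Control began with U in 45% of the 60 hairpins and with C in 15%.

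The hairpins themselves are shown next, with the arms in capitals where a mature sequence was at hand, to place each arm on its stem.
Mir345: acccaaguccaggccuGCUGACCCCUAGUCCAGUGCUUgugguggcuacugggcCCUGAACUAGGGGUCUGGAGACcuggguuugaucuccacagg
Mir324: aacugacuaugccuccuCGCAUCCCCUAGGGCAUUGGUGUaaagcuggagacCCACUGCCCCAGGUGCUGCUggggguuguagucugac
Mir676: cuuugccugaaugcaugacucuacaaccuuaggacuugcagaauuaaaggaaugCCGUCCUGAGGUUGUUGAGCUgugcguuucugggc

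In the predicted folds, each of the 5 arms had 2 G:C pairs among its first 4 bases. The arms of miR-345 and of miR-324 thus tied on this measure, as did the arms of 24 of the 55 hairpins that could be compared (43.6%). MiR-345-5p had 2 unpaired bases among these 4, and the other arms had 1 unpaired base and 1 A:U pair. These are predictions from sequence and were not measured.

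Mir345 lies on the plus strand of chromosome 12, from 110075183 to 110075278 of the NCBIM37 genome. It overlaps no other annotated gene, and the nearest protein-coding gene is Slc25a29, a mitochondrial carrier gene on the minus strand, 1090 bp away. Mir324 lies on the plus strand of chromosome 11, from 69825545 to 69825633. It overlaps an exon of Dvl2, a Wnt signalling gene on the same strand, and an intron of Acadvl, a gene of fatty acid oxidation on the opposite strand. Mir676 lies on the plus strand of chromosome X, from 97576436 to 97576524, within an intron of Eda, which encodes the signalling protein ectodysplasin A. The genome at each of these 3 places was identical to the RefSeq hairpin.

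Levels are given in RPM, that is, how many of every 1000000 reads in a library belonged to the miRNA. Totals ranged from 16478281 to 17623671 reads in Control and from 17086815 to 20169254 reads in TGF-beta1, so that 1 read was worth 0.0496 to 0.0607 RPM. The listed miRNAs took 79.5% to 79.8% of the total in Control and 71.6% to 73.1% in TGF-beta1. As a check of the cell type, lists of marker miRNAs were summed. The mesenchymal and contractile list (miR-21, miR-143, miR-145, miR-199a and miR-214, 6 of 8 names listed) summed to 17381 to 18864 RPM in Control and 17955 to 21743 RPM in TGF-beta1. Of this, miR-21-5p made up 16151 RPM on average, so the sum says little about the other members. Their directions differed. The log2 change of (RPM + 1) was -0.95 for miR-199a-5p, -0.31 for miR-199a-3p and -0.20 for miR-214-3p. It was 0.92 for miR-145-5p, 0.13 for miR-21-5p and 0.01 for miR-143-3p. Markers of other cells summed to at most 0.298 RPM for endothelium (2 of 2 listed), 0.240 for blood (2 of 6 listed) and 2.40 for neurons (2 of 2 listed). The epithelial list (5 of 5 listed) summed to 22.2 to 25.4 RPM in Control and 1.67 to 2.53 in TGF-beta1, and miR-122-5p of hepatocytes was at 24.2 to 27.3 and 13.1 to 13.9 RPM. The tubule list (3 of 3 listed) summed to 293.4 to 308.0 RPM in Control and 342.0 to 365.4 in TGF-beta1. The muscle list (3 of 4 listed), mostly miR-206-3p, was at 3440 to 3646 RPM in Control and 3285 to 3465 in TGF-beta1. No marker was at 0 in every library. The part of these lists in the results below was not tested.

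MiR-345 was a hairpin with a dominant 3p arm, and its arms went in opposite directions. MiR-345-3p was at 210.0, 199.4 and 174.3 RPM in Control replicates 1 to 3. After TGF-β1 it was at 179.9, 101.8 and 110.5 RPM. The groups overlapped on this arm, because TGF-beta1 replicate 1, the deepest library, lay above Control replicate 3. The means were 194.6 ± 18.4 RPM in Control and 130.7 ± 42.8 RPM in TGF-beta1 (SD, n = 3 each).

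MiR-345-5p, the minor arm, was at 17.1, 16.0 and 9.76 RPM in Control and at 20.8, 18.9 and 21.0 RPM after TGF-β1. Every treated library lay above every Control library, and Control replicate 3 lay well below the other two. The means were 14.3 ± 3.96 RPM in Control and 20.2 ± 1.19 RPM in TGF-beta1 (SD, n = 3 each), 1.42 times the Control level. The log2 change of (RPM + 1) was -0.61 for the 3p arm and 0.51 for the 5p arm, against a median of -0.17 over the 408 miRNAs with enough reads to be fitted. Without Control replicate 3 the change of the 5p arm was 0.27, and without TGF-beta1 replicate 1 that of the 3p arm was -0.87.

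The sum of both arms of miR-345 was 208.8 ± 22.3 RPM in Control and 150.9 ± 43.4 RPM in TGF-beta1 (SD, n = 3 each), and the groups overlapped. The sum followed the 3p arm, which made up 93.2% ± 1.26 of the hairpin's reads in Control and 86.0% ± 3.14 in TGF-beta1 (SD, n = 3 each).

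MiR-324 was the only one of the 3 hairpins with a dominant 5p arm, and there the minor 3p arm carried the difference. MiR-324-5p is known as a repressor of hedgehog signalling. It was at 20.4, 20.3 and 18.8 RPM in Control and at 19.0, 21.5 and 15.6 RPM after TGF-β1. The treated libraries enclosed the Control libraries on this arm. Its means were 19.8 ± 0.861 RPM in Control and 18.7 ± 2.95 RPM in TGF-beta1 (SD, n = 3 each).

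MiR-324-3p was at 5.34, 4.44 and 3.80 RPM in Control and at 2.23, 1.45 and 1.93 RPM after TGF-β1. All treated libraries lay below all Control libraries. The means were 4.53 ± 0.773 RPM and 1.87 ± 0.393 RPM (SD, n = 3 each), so the treated level was 0.413 of Control. These levels rested on few reads, from 67 to 88 in a Control library and from 26 to 45 in a treated one.

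The log2 change of (RPM + 1) was -0.94 for miR-324-3p and -0.09 for miR-324-5p. The small change of the 5p arm took the other sign under 4 other scalings of the libraries, at 0.042 to 0.12, and without TGF-beta1 replicate 3 it was 0.028. The arm sum of miR-324 was 24.4 ± 1.57 RPM in Control and 20.6 ± 2.76 RPM in TGF-beta1 (SD, n = 3 each), and the groups overlapped. The 3p arm made up 18.5% ± 2.04 of the hairpin's reads in Control and 9.27% ± 2.56 in TGF-beta1 (SD, n = 3 each), the widest gap in share among the 3 hairpins.

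MiR-676 had a dominant 3p arm, and both of its arms were lower after TGF-β1 by unequal amounts. MiR-676-3p was at 96.4, 112.5 and 89.6 RPM in Control and at 49.0, 40.7 and 45.4 RPM after TGF-β1. The groups stood far apart on this arm, with means of 99.5 ± 11.8 RPM and 45.0 ± 4.18 RPM (SD, n = 3 each), so the treated level was 0.453 of Control.

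MiR-676-5p was at 2.73, 2.34 and 2.84 RPM in Control and at 2.03, 2.18 and 2.17 RPM after TGF-β1, the smallest gap among the arms whose groups did not overlap. Each library held only 37 to 50 reads of it. Its means were 2.64 ± 0.263 RPM in Control and 2.13 ± 0.0801 RPM in TGF-beta1 (SD, n = 3 each). The log2 change of (RPM + 1) was -1.12 for the 3p arm and -0.22 for the 5p arm.

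The arm sum of miR-676 was 102.1 ± 11.5 RPM in Control and 47.2 ± 4.11 RPM in TGF-beta1 (SD, n = 3 each). Of the 3 hairpins it was the only one whose sums did not overlap between the groups. A lower sum with separated libraries was common, at 48.8% of the 84 hairpins whose arms both averaged at least 1 RPM. The 3p arm still made up 95.5% ± 0.549 of the reads in TGF-beta1, against 97.4% ± 0.530 in Control (SD, n = 3 each).

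**Figure D1:**
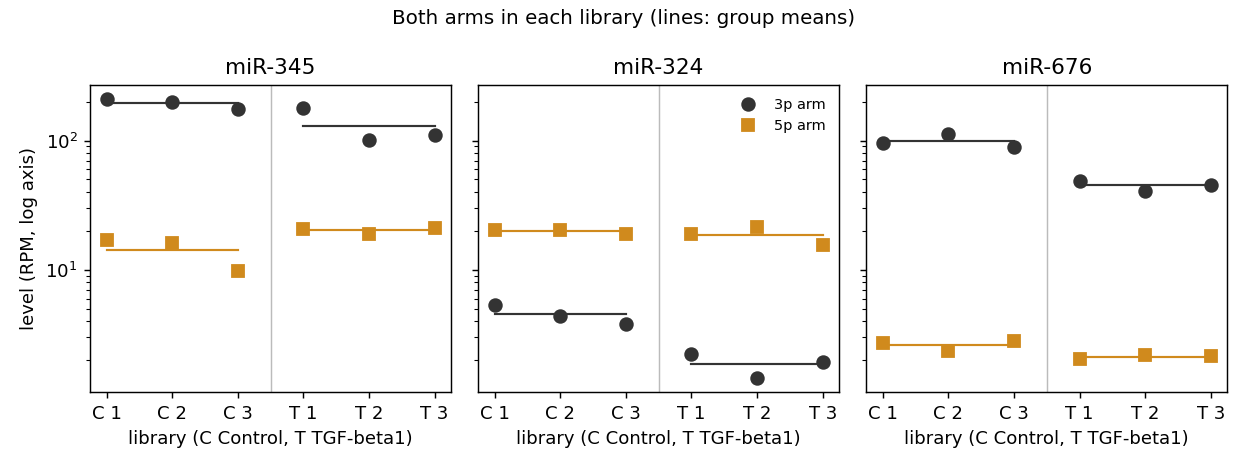
Level of both arms of each hairpin in RPM (log axis) in the 6 libraries, 3 of Control (C) and 3 of TGF-beta1 (T); points are libraries and lines are group means. For miR-345 the 3p arm averaged 194.6 RPM in Control and 130.7 RPM in TGF-beta1 while the 5p arm averaged 14.3 and 20.2 RPM; for miR-324 the 5p arm overlapped between the groups and the 3p arm did not.

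Over the 6 arms, 3 were lower and 1 was higher in every treated library than in every Control library. Among all 408 fitted miRNAs, 36% were lower and 20.8% higher in this way. All 6 arms were among these 408. With a limma adjusted p under 0.05, 3 of the 6 arms counted as lower, against 31.9% of the 408 miRNAs, and 0 counted as higher, against 17.4%. With an absolute log2 change above 1 as well, 1 arm, miR-676-3p, counted as lower, against 7.84% of the miRNAs. In the other direction 0 arms did, against 4.41%. By the adjusted p of DESeq2, 1 arm counted as higher, beside 75 of all miRNAs. The adjusted p of edgeR gave 1 arm beside 85 miRNAs with TMM, and 0 arms beside 69 miRNAs on library totals. At an unadjusted limma p under 0.05, 1 arm counted as higher, with no count over all miRNAs to set beside it. Nothing is read from these counts, because the arms were picked on this contrast. The balance of these background counts depended on the scaling, with 130 miRNAs lower and 71 higher on library totals but 91 lower and 97 higher with median of ratios.

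The number of 3p reads per 5p read was lower after TGF-β1 in all 3 hairpins. For miR-345 it was 12.3, 12.5 and 17.9 in Control and 8.64, 5.39 and 5.26 after treatment, with means of 14.2 ± 3.17 and 6.43 ± 1.91 (SD, n = 3 each). For miR-324 it was 0.262, 0.219 and 0.202 in Control and 0.117, 0.0675 and 0.124 after treatment, with means of 0.228 ± 0.0310 and 0.103 ± 0.0307 (SD, n = 3 each). For miR-676 it was 35.3, 48.1 and 31.6 in Control and 24.1, 18.7 and 20.9 after treatment, with means of 38.3 ± 8.68 and 21.3 ± 2.73 (SD, n = 3 each). In each hairpin the highest treated library stayed below the lowest Control library. The treated mean was 0.453, 0.452 and 0.554 of the Control mean for miR-345, miR-324 and miR-676. The dominant arm did not change in any library, so miR-345 and miR-676 stayed 3p-dominant and miR-324 stayed 5p-dominant.

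**Figure D2:**
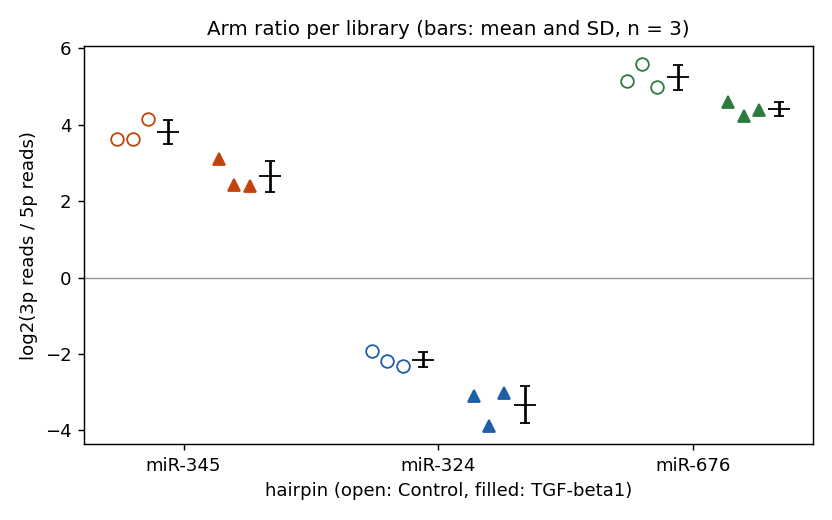
Log2 of the ratio of 3p to 5p reads per library for each hairpin, with open circles for Control and filled triangles for TGF-beta1; bars are the mean and SD of 3 libraries, and 0 marks equal arms. Every treated library lies below every Control library of the same hairpin, and no hairpin crosses 0.

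Counting error set part of this spread. On the log2 scale, the counting error of a single library's ratio was 0.0744 to 0.113 for miR-345, while its libraries varied with an SD of 0.31 in Control and 0.40 in TGF-beta1. For miR-324 the counting error was 0.173 to 0.292 and the SDs were 0.19 and 0.48. For miR-676 it was 0.207 to 0.243 and the SDs were 0.32 and 0.18. The spread of miR-345 thus went beyond counting in both groups, whereas that of miR-324 in Control and of miR-676 in TGF-beta1 was of the size that counting alone gives. Counting error treats reads as independent molecules, which PCR reads are not. For the table as a whole, libraries of the same group differed by far more than counting gives. The chi-square per degree of freedom between 2 such libraries was 43.2 to 137.9, highest between TGF-beta1 replicates 1 and 2. A match with the counting error in an SD of 3 libraries is therefore no sign of low noise.

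The change of log2((3p + 1)/(5p + 1)), with levels in RPM, is called the arm shift here, and a value below 0 is a shift toward the 5p arm. The arm shift was -1.12 ± 0.28 for miR-345, -0.86 ± 0.23 for miR-324 and -0.91 ± 0.18 for miR-676 (SE of the difference, n = 3 in each group). Without the added 1 RPM, and from reads alone, the shifts were -1.16, -1.19 and -0.84. The added 1 RPM thus understated the shift of miR-324, whose minor arm was at 1.45 to 5.34 RPM, and with 10 RPM added it was -0.23.

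With each library left out in turn, the arm shift of miR-345 stayed between -1.35 (without TGF-beta1 replicate 1) and -0.96 (without Control replicate 3). That of miR-324 stayed between -0.99 (without TGF-beta1 replicate 3) and -0.65 (without TGF-beta1 replicate 2). That of miR-676 stayed between -1.02 (without Control replicate 3) and -0.76 (without Control replicate 2). No library, left out alone, turned a shift toward 3p.

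Set beside the 84 hairpins, the 3 shifts were large but not extreme. The median arm shift of the 84 was -0.11, the quartiles were -0.61 and 0.20, and 48 hairpins lay below 0. Ranked from the largest shift toward 5p, miR-345 stood at place 6, miR-676 at 11 and miR-324 at 12. With libraries left out in turn, miR-345 stood at places 4 to 8, miR-676 at 7 to 15 and miR-324 at 7 to 16. On reads without the added 1 RPM they stood at places 8, 17 and 7. The libraries of the groups were separated toward 5p in all 3 hairpins and in 29.8% of the 84. A limma adjusted p under 0.05 was reached toward 5p by 17 of the 84 hairpins (20.2%) and toward 3p by 5 (5.95%). The 3 hairpins are part of the 17, and nothing is read from this, because they were picked on the same ratio. This count of 17 was 4 with the replicate number as a block, 3 without Control replicate 1 and 3 without TGF-beta1 replicate 2.

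**Figure D3:**
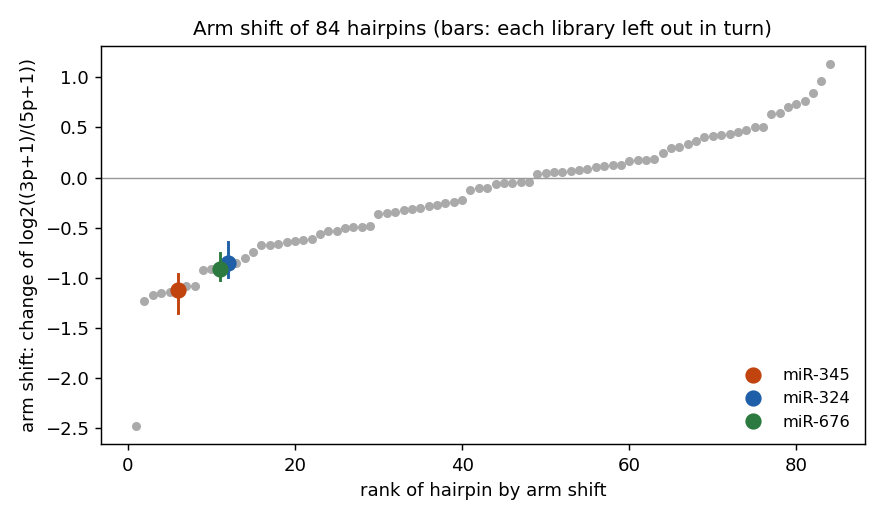
Arm shift of 84 hairpins in order of rank, as the change of log2((3p + 1)/(5p + 1)) from Control to TGF-beta1; coloured points are the 3 hairpins and vertical bars span the values with each of the 6 libraries left out in turn. MiR-345, miR-676 and miR-324 stand at places 6, 11 and 12 from the 5p side, and their bars stay below 0.

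The hairpins with larger shifts toward 5p were led by miR-27a at -2.48, miR-27b at -1.23, miR-21 at -1.18, miR-148b at -1.15 and miR-25 at -1.15, with limma adjusted p-values between 0.000434 and 0.0156. The 5 hairpins that reached the threshold toward 3p were miR-143 at 1.13, miR-127 at 0.97, miR-532 at 0.84, miR-361 at 0.76 and let-7b at 0.63, with limma adjusted p-values between 0.00931 and 0.0360. Of the 17 hairpins that reached the threshold toward 5p, 11 had a dominant 3p arm, as miR-345 and miR-676 do, and 6 a dominant 5p arm, as miR-324 does. Of all 84 hairpins, 44 had a dominant 3p arm in Control and 40 a dominant 5p arm. In 9 of the 17 both arms were lower, as in miR-676 and, with library totals but not with the other scalings of its 5p arm, miR-324, and in 8 the 3p arm was lower and the 5p arm higher, as in miR-345. Among all 84 hairpins, 16 had a lower 3p arm and a higher 5p arm. Both changes were over 0.4 on the log2 scale in 2 of the 84, miR-345 and miR-27a. This limit of 0.4 was chosen after the values were seen, and miR-345 did not pass it under every setting. Its 3p arm was at -0.398 with median of ratios, and its 5p arm at 0.33 with a pseudocount of 10 and 0.27 without Control replicate 3.

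**Figure D4:**
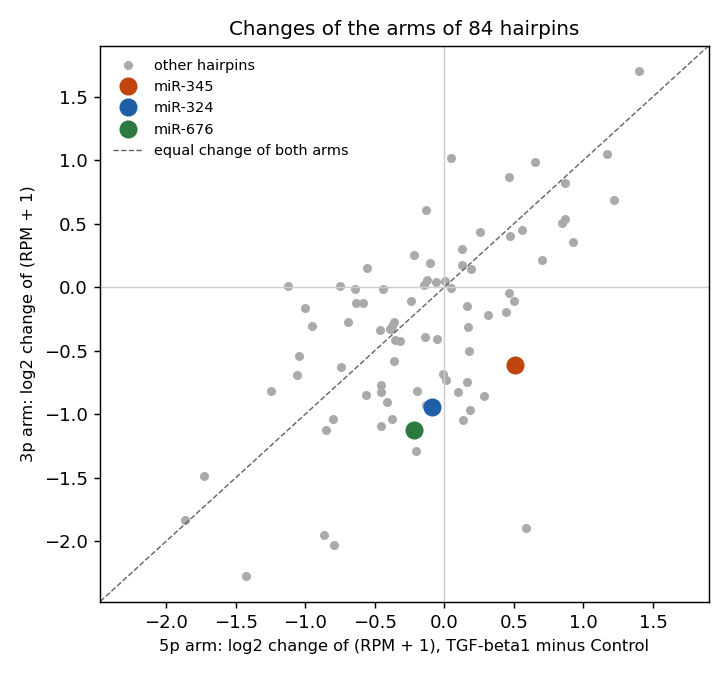
Log2 change of the 3p arm against that of the 5p arm for 84 hairpins, each as log2(RPM + 1) in TGF-beta1 minus Control; on the dashed line both arms change equally. The 3 coloured hairpins lie below the line, miR-345 to the right of 0 on the 5p axis (0.51) and miR-324 and miR-676 slightly to the left of it (-0.09, which turns positive under other scalings, and -0.22).

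The 2 hairpins closest in abundance to each of the 3 did not reach the threshold. Nearest to the arm sum of miR-345 were miR-98 and miR-145, with shifts of 0.10 and -0.56 (limma adjusted p = 0.816 and 0.0690). Nearest to miR-676 were miR-664 and miR-382, with shifts of -0.51 and -0.05 (limma adjusted p = 0.114 and 0.872). Nearest to miR-324 were miR-186 and miR-362, with shifts of -0.31 and -0.37 (limma adjusted p = 0.368 and 0.295). Hairpins slightly farther in abundance from miR-676 did reach it, such as miR-181c with a shift of -1.08 (limma adjusted p = 0.0173), which was chosen after its values were seen. The 3 hairpins were picked on this ratio and the neighbours in abundance were not, so that choice alone favours a larger shift in the 3. The difference between the 3 hairpins and these neighbours was not tested.

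Over the 6 libraries, the log2 arm ratio of miR-345 was most like those of miR-145, miR-29a and miR-27b (Pearson r = 0.978, 0.975 and 0.973). That of miR-324 was most like those of miR-92b, miR-30a and miR-148b (r = 0.94, 0.94 and 0.93). That of miR-676 was most like those of miR-185, miR-485 and miR-148b (r = 0.96, 0.94 and 0.94). Among themselves the 3 hairpins correlated at 0.80 to 0.88. All these coefficients are descriptions over the same 6 libraries, in which the groups were separated on each of the 3 ratios.

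The nearest miRNA genes on each chromosome with a fitted level were also compared, since these were not picked for their arms. Before Mir345, 178255 bp away, miR-342-5p averaged 23.4 ± 0.820 RPM in Control and 15.7 ± 1.81 RPM in TGF-beta1 (SD, n = 3 each). It fell by 0.55 on the log2 scale with a limma adjusted p of 0.00921, while miR-342-3p was at 0.15 (limma adjusted p = 0.746). After it, 748722 bp away at the imprinted Dlk1-Dio3 region, miR-337-5p rose by 0.88 (limma adjusted p = 0.00519). Before Mir324, 348918 bp away, miR-1934-3p fell by 0.75 on the log2 scale (limma adjusted p = 0.00557). After it, 5161257 bp away, miR-212-5p rose by 0.67 (limma adjusted p = 0.00584) and miR-212-3p was at 0.19 (limma adjusted p = 0.310). After Mir676, 3191730 bp away, miR-421-3p fell by 0.90 (limma adjusted p = 0.00645), and before it, 28068789 bp away, miR-452-5p rose by 0.58 (limma adjusted p = 0.00426). The neighbours of each hairpin thus did not move in 1 direction.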

How the data were processed

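Small RNA from mouse mesangial cells was sequenced as 6 libraries on an Illumina HiSeq 2000. The authors assigned the cleaned reads to miRBase 17 entries with Bowtie, per the study's methods. The counting of reads that fit more than 1 miRNA is not given in the sources used here. The deposited unit is called TPM by the authors and is RPM, reads per 1000000 reads of a library total. Library totals were recovered as the integers that make the deposited RPM values whole reads, and 100% of the values were whole within a tolerance of 0.002. Of 16 rows identical to another row (at least 20 reads), 0 were arms described here.

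Arms were paired by name, and a hairpin was kept where each arm averaged 1 RPM or more over the 6 libraries (84 hairpins). The background fits used limma 3.58.1 (R 4.3.3, prior variance trended) on log2(RPM + 1), on its 3p minus 5p difference and on the arm sum, with group as the only term and Benjamini-Hochberg adjustment. The levels of single miRNAs were fitted for those kept by filterByExpr of edgeR 4.0.16 with a minimum count of 10 (408 miRNAs). Since the deposited values are normalized, count tests on the recovered reads (edgeR, DESeq2 1.42.0) were alternatives, as were other pseudocounts, scalings and filters, a replicate block and leaving out each library. The members and lists were chosen with earlier results of these data known. The miRNAs named are the arms, those nearest to them on the chromosome, in abundance or in pattern, the 5 largest shifts each way among hairpins past the threshold, and cell type markers. Positions came from GENCODE vM1 on NCBIM37 (the study used mm9, the same build), sequences from RefSeq (GRCm38.p6 table), and folds from ViennaRNA 2.7.2.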

Additional observations from a re-analysis of the deposited data

How the results depend on the processing

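The arm shifts of the 3 hairpins stayed below 0 under every alternative run, and the shifts of miR-345 and miR-676 moved by less than the replicate SD. That of miR-324 was -1.14 with a pseudocount of 0.1, -0.23 with 10, -1.19 from reads with none and -1.18 from reads pooled over a group. For single arms, miR-324-3p was at -1.24 and -0.29 with these pseudocounts, and miR-676-5p at -0.059 with 10. Scaling moved levels more than ratios, and the median log2 change of all fitted miRNAs went from -0.17 to -0.065 with TMM and -0.022 with median of ratios. MiR-324-5p reversed to 0.056 (TMM), 0.12 (median of ratios), 0.042 (upper quartile) and 0.043 (sum of the rows), in which miR-676-5p was at -0.11, -0.066, -0.12 and -0.13. With TMM and median of ratios, miR-676-3p was at -0.97 and -0.91 and the sum of miR-676 at -0.95 and -0.88. The sum of miR-324 was -0.031 with median of ratios, against -0.24, and that of miR-345 was -0.28, against -0.50. With libraries left out in turn, miR-324-5p ranged from -0.19 to 0.028, the sum of miR-324 from -0.32 to -0.13 (without TGF-beta1 replicate 3), and that of miR-345 from -0.72 to -0.35.

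The counts over all hairpins changed more. Hairpins with a changed ratio toward 3p and 5p numbered 5 and 17. They were 1 and 11 with a pseudocount of 0.1, 17 and 31 with no filter, and 1 and 4 with the replicate block. The count toward 3p was 10 with a pseudocount of 10 and 3 with the DESeq2 interaction, and that toward 5p was 8 with both arms at 10 RPM. With libraries left out in turn the ranges were 0 to 5 (0 by limma without Control replicate 1 or TGF-beta1 replicate 2, where 7 and 8 had an unadjusted p under 0.05) and 3 to 19. Whether libraries with the same number were matched is not given in the sources used here. Deviations of same-numbered libraries from their group means had correlations of 0.059, -0.20 and -0.21. With 3 libraries in each group these cannot decide it. Hairpins with a changed sum, 16 higher and 40 lower, were 27 and 30 with median of ratios, 45 and 78 with no filter, and 3 and 15 with both arms at 10 RPM. MiRNAs at a lower and a higher level numbered 130 and 71, and 72 and 75 with DESeq2. Filters change the number tested by construction; otherwise the cause was not tested. Few reads limit miR-324-3p and miR-676-5p.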
